A study of Mus musculus with 12 samples.

Results

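A set of 10 p53 target genes was followed through the early differentiation of mouse embryonic stem cells with and without the acetyltransferase Gcn5. The 10 genes are Cdkn1a, Mdm2, Btg2, Trp53inp1, Ccng1, Sesn1, Bbc3, Bax, Phlda3 and Zmat3, familiar targets of p53. They were taken from the table by gene symbol, a rule that uses no measured value. The set was, however, chosen with earlier results of these data known. All 10 are among the 18269 genes of the deposited table, and all 10 were abundant enough to be tested (17000 genes had a mean of at least 10 normalised reads in at least 1 group). RNA came from embryoid bodies, aggregates in which embryonic stem cells differentiate. The strain is C57BL/6 throughout. The floxed line 4_1 (genotype Gcn5 fx/fx) has recombination sites at both copies of Gcn5, and the null line 4C2 has the genotype Gcn5-/-. Each line was sampled at day 3 and at day 5, with 3 libraries in each of the 4 groups by the sample labels, while the series text speaks of duplicates. The series asks how expression changes on Gcn5 loss at early differentiation stages. Because 1 line stands for each genotype, effects of genotype and of line cannot be told apart. Nothing in the labels says that the 3 samples of a group were separate cultures, so p-values measure only the spread between these samples, which may be technical.

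p53, encoded by Trp53 in the mouse, is a transcription factor that is held low by the ubiquitin ligase Mdm2 and its partner Mdm4 and is stabilised after DNA damage and other stress. It binds a response element made of a pair of similar half-sites and raises transcription of genes for cell cycle arrest, repair, metabolism and cell death, and also that of Mdm2, which closes a feedback loop. Embryonic stem cells hold abundant p53 protein and divide quickly, and p53 has been studied there as a factor that favours differentiation. Gcn5, whose gene symbol is Kat2a, is the histone acetyltransferase of the SAGA and ATAC coactivator complexes, and acetylation of p53 itself by the related PCAF (Kat2b) is known.

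The response element was looked for in the promoters of the 10 genes because it is the sequence through which p53 reaches its targets. RefSeq windows on build GRCm38.p6, each from 250 bases before to 50 bases after a transcription start, were on hand for 8 of the 10 genes, with 12 windows in all. A match was a p53 response element, read on both strands, with both 10-base half-sites, a spacer of at most 1 base, the core CNNG kept in each half-site, and at most 3 mismatches over the 20 consensus bases. The best match of each gene that has one is printed 5′ to 3′ along the strand of the gene, and capitals mark the CNNG cores.
Cdkn1a, chr17:29090928-29090947, plus strand: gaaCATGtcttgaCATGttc
Ccng1, chr11:40755462-40755481, minus strand: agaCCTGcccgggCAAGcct
Bax, chr7:45467079-45467099, minus strand: aggCAAGctttgaaCTTGcgg
Sesn1, chr10:41887266-41887285, plus strand: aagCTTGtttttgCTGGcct
Bbc3, chr7:16309486-16309505, plus strand: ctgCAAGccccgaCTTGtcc
The Cdkn1a and Ccng1 sequences had 1 mismatch each, Bax had 2 mismatches and a spacer of 1 base, and Sesn1 and Bbc3 had 3 each. Their first bases lie 51 (Cdkn1a), 195 (Ccng1), 201 (Bax), 173 (Sesn1) and 97 (Bbc3) bases upstream of a start. Cdkn1a, Sesn1 and Bbc3 also have windows at other starts, and those hold no match. Such a match was present in 5 of the 12 windows of these genes and in 2.82% of all 32851 windows of the table, and a match with at most 1 mismatch was present in 0.11% of all windows. The windows of Btg2, Mdm2 and Phlda3 do not hold these letters. Trp53inp1 and Zmat3 have no entry. A match describes the sequence and is not evidence of binding.

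Levels of the 10 genes spanned a wide range. Per kilobase of exon, Ccng1 was highest in floxed day 3 embryoid bodies at 2468 ± 161 normalised reads (SD, n = 3, as for every group below), followed by Bax at 1881 ± 144 and Trp53inp1 at 1207 ± 55.4. Phlda3 (500.2 ± 98.5), Btg2 (499.8 ± 103) and Mdm2 (458 ± 6.64) came next and did not differ from each other beyond their spread. Bbc3 (261 ± 14.7), Zmat3 (227 ± 32.0) and Cdkn1a (203 ± 52.4) formed a lower set with overlapping spreads, and Sesn1 was lowest at 126 ± 9.87. In null day 5 embryoid bodies the per-kilobase order had changed in its upper part: Ccng1 stood at 3378 ± 97.5, Trp53inp1 at 1622 ± 59.5, Bax at 1187 ± 83.4 and Btg2 at 976 ± 46.5. Cdkn1a remained among the lower genes on the same scale, at 259 ± 47.9. No level of the 10 genes was limited by depth. The lowest count was 323 reads, for Sesn1 and for Bbc3 in the second null day 3 library, where counting error alone is 5.56%.

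The libraries held 23090915 to 29446068 recovered reads in the floxed line and 18022071 to 26803369 in the null line. Over all genes, days lay apart along principal component 1 (60.2% of the variance) and lines along component 2 (14.5%). On component 3 (5.89%) the libraries numbered 3 of floxed day 5, null day 3 and null day 5 lay apart from the rest, and that of floxed day 3 did not. Calls lost without the 4 libraries numbered 3 are given beside the results they touch. Markers of epiblast and pluripotency were detected in all groups, as were those of primitive streak, neural ectoderm and extraembryonic endoderm, and no marker in the table was at 0 throughout a group. In bulk RNA of this kind, fewer cells of a type and less RNA per cell cannot be told apart. Kat2a (chromosome 11, 100704746 to 100712465) had 2077, 2226 and 2380 normalised reads in the floxed and 649, 614 and 840 in the null libraries of day 3, and 2161, 2391 and 2071 against 739, 852 and 860.2 at day 5. The fall was -1.68 ± 0.11 on the log2 scale at day 3 (SE, limma-trend, adjusted p = 1.01e-05) and -1.43 ± 0.11 at day 5 (adjusted p = 1.6e-05). With 1 value per gene, it is not known whether the reads left in the null line come from outside the deleted part.

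**Figure D1:**
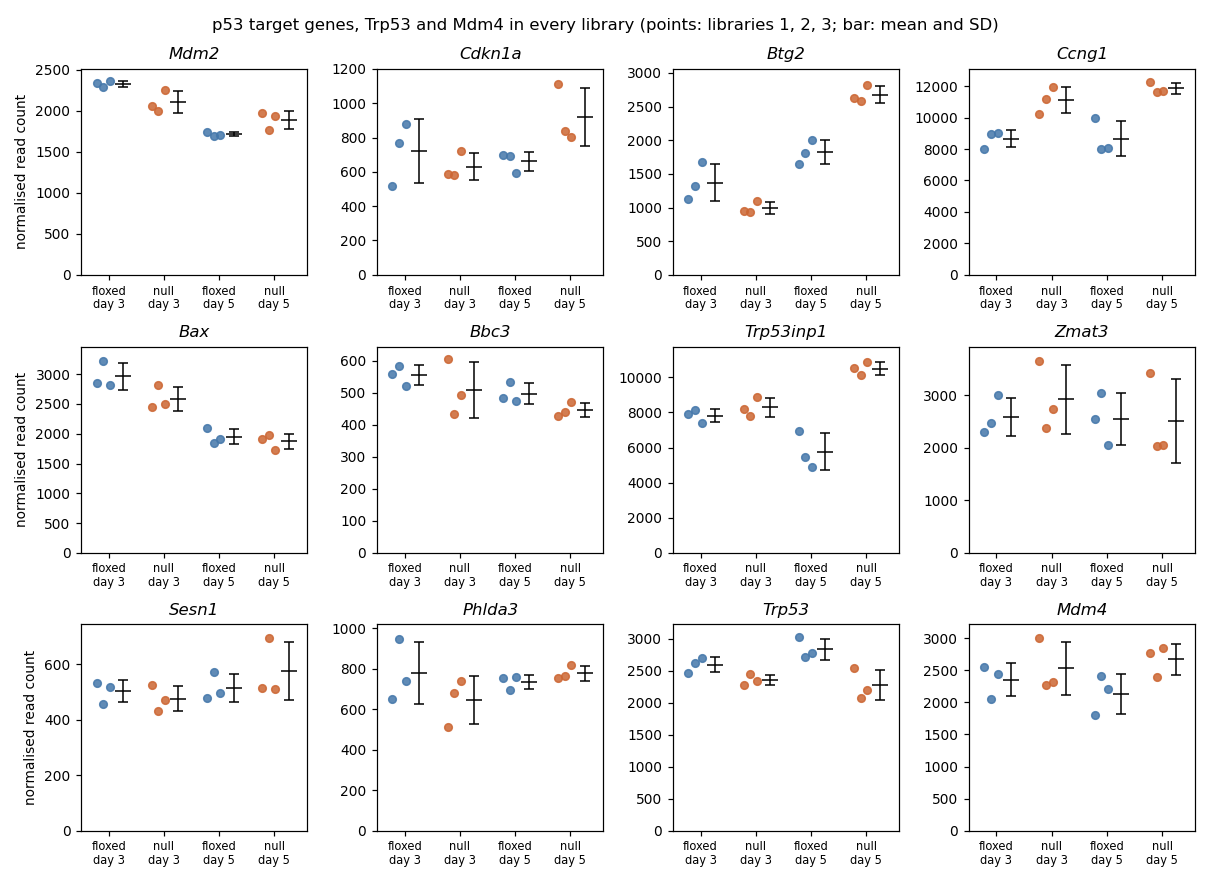
Normalised read count (vertical axes, from 0) of the 10 p53 target genes, Trp53 and Mdm4 in each of the 12 libraries. Points are the 3 libraries of a group (floxed blue, null orange), and the bar to their right is the mean with SD. For Btg2 and Trp53inp1 the null day 5 points lie above all points of the other 3 groups.

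At day 3 the null and floxed embryoid bodies differed little in these genes. Ccng1 was higher in the null line. No gene of the 10 was called lower in the main test, which does not pair libraries by number. Here and below, a gene is called when its Benjamini-Hochberg adjusted p, over all 17000 genes in a two-sided limma-trend test of log2(value + 1), is under 0.05. Calls at day 3 made up 6.12% of all genes tested (4.09% higher, 2.03% lower), so 1 call among 10 genes is near that background. In all, 696 genes were higher and 345 lower, or 213 and 245 with chromosome 11 centred, as described with Ccng1. At an unadjusted p under 0.05, 1 of the 10 genes was higher and 3 (Btg2, Bax and Mdm2) were lower, against 22.6% of all genes in either direction. The edgeR test gave 1 higher and 0 lower, and DESeq2 gave 1 of each. With the replicate number as a block, which pairs the libraries, 1 was called higher and 1 (Btg2) lower. Over all genes that fit called 1096 higher and 770 lower. The median log2 difference of the 10 genes was -0.14, with 3 genes above 0 and 7 below, against -0.00 over all genes.

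Ccng1 (ENSMUSG00000020326.7, chromosome 11, 40748552 to 40755311, minus strand) encodes cyclin G1, a p53-induced protein that acts on Mdm2 through the phosphatase PP2A. Its normalised counts at day 3 were 8013, 8985 and 9005 in floxed and 10244, 11207 and 11931 in null libraries. Every null library was above every floxed one, and the difference was 0.36 ± 0.09 on the log2 scale (adjusted p = 0.0333). The call was lost without any one of floxed day 3 replicates 1, 2 and 3 (adjusted p = 0.134, 0.0634 and 0.0533) or null day 3 replicates 2 and 3 (0.0800 and 0.126), and without all 4 libraries numbered 3 (0.148). Ccng1 lies on chromosome 11, where 88.4% of the 1332 genes tested were higher in the null line at day 3 and the median difference was 0.36. Of those genes, 50.2% lay below Ccng1. With chromosome 11 centred on its own median the difference of Ccng1 was 0.00 (adjusted p = 0.999).

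Btg2 (ENSMUSG00000020423.6, chromosome 1, 134075170 to 134079120, minus strand) encodes an antiproliferative protein that recruits the CCR4-NOT deadenylase. At day 3 its counts were 1122, 1315 and 1676 in floxed and 943, 939.8 and 1095 in null libraries. The groups did not overlap, yet the floxed libraries spread widely, and the difference of -0.45 ± 0.13 missed the threshold (adjusted p = 0.0541). It passed with the replicate number as a block (adjusted p = 0.00556), which raised the called genes of the 10 from 1 to 2. It also passed with DESeq2 (0.0130) and without floxed day 3 replicate 1 (0.0278).

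Mdm2 (ENSMUSG00000020184.14, chromosome 10, 117688875 to 117710758, minus strand), the main ubiquitin ligase for p53, had 2334, 2293 and 2360 normalised reads in floxed and 2059, 1997 and 2254 in null libraries of day 3. All null libraries were below all floxed ones, with a difference of -0.15 ± 0.07 on the log2 scale (adjusted p = 0.216). Groups that do not overlap were common at this day: 13.1% of all genes tested were lower and 14.8% higher in every null library than in any floxed one, and of the 10 genes 2 and 1 were.

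The remaining genes overlapped between the lines at day 3. Cdkn1a (ENSMUSG00000023067.13, chromosome 17, 29090976 to 29100727, plus strand) encodes p21, the inhibitor of cyclin-dependent kinases through which p53 arrests the cell cycle. Its day 3 counts were 515, 770 and 878 in floxed and 585, 581 and 721 in null libraries, a difference of -0.17 ± 0.18 (adjusted p = 0.634). Trp53inp1 (ENSMUSG00000028211.11, chromosome 4, 11156431 to 11174379, plus strand), a stress-induced protein of autophagy and cell death, had 7894, 8130 and 7425 against 8212, 7789 and 8862 (0.08 ± 0.10). Bax (ENSMUSG00000003873.10, chromosome 7, 45461697 to 45466898, minus strand), which permeabilises the outer mitochondrial membrane, had 2849, 3226 and 2817 against 2449, 2822 and 2502 (-0.19 ± 0.08, adjusted p = 0.196). Differences of the other 4 at day 3 ran from -0.27 ± 0.15 for Phlda3 to 0.16 ± 0.21 for Zmat3, and none was called.

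At day 5 more of the genes were called. Trp53inp1, Btg2 and Ccng1 were higher in the null line. By limma-trend, edgeR, DESeq2 or with the replicate block, no gene of the 10 was called lower. At an unadjusted p under 0.05, 4 of the 10 were higher and 0 lower, against 39.0% of all genes in either direction. The 3 calls stand beside a background of 26.5% of all genes called (13.0% higher, 13.5% lower), so the share called among the 10 was near that of all genes. The median difference of the 10 genes was 0.14, with 7 above 0 and 3 below, and that of all genes was -0.02.

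Trp53inp1 had the widest gap of the 10 at this day. Its normalised counts were 6940, 5475 and 4887 in floxed and 10506, 10119 and 10889 in null libraries. The lowest null library stood well above the highest floxed one, and the difference was 0.88 ± 0.10 on the log2 scale, or 1.84-fold (adjusted p = 0.000173). Btg2 had 1649, 1817 and 2000 normalised reads in floxed and 2620, 2586 and 2822 in null libraries. Again the groups did not overlap, with a difference of 0.56 ± 0.13, or 1.47-fold (adjusted p = 0.00696). Both calls were kept whichever day 5 library was left out.

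Ccng1 counts at day 5 were 9969, 7973 and 8041 in floxed and 12257, 11634 and 11698 in null libraries. Their difference was 0.46 ± 0.09 (adjusted p = 0.00311), and it too was called whichever day 5 library was left out. On chromosome 11 as a whole, 79.9% of genes were higher in the null line at day 5 with a median of 0.33, and 63.7% of them lay below Ccng1. Centred on that median, the difference of Ccng1 was 0.14 (adjusted p = 0.299). Both other genes called at day 5 lie on other chromosomes.

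Cdkn1a stood just short of the threshold at day 5. The floxed libraries had 695, 690.5 and 595 normalised reads and the null libraries 1114, 837 and 805, so that the groups were apart but the null libraries differed among themselves. The difference was 0.46 ± 0.18, or 1.38-fold (adjusted p = 0.0752). DESeq2 called it (adjusted p = 0.0429), as did the fit of the 2 day 5 groups alone (0.0444).

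Mdm2 had 1742, 1693 and 1708 normalised reads in floxed and 1975, 1765 and 1938 in null libraries at day 5, all null libraries above all floxed ones, for a difference of 0.14 ± 0.07 (adjusted p = 0.144). Bbc3 (ENSMUSG00000002083.12, chromosome 7, 16308393 to 16318205, plus strand), which encodes the cell death inducer Puma, had its groups apart in the other direction. Its counts were 484, 535 and 474 in floxed and 427, 439 and 469.8 in null libraries (-0.16 ± 0.12, adjusted p = 0.351). In all, 5 of the 10 genes were higher in every null library than in any floxed one (background 19.8%) and 1 was lower in every one (background 22.2%).

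Bax differed by -0.06 ± 0.08 at day 5 (1950 ± 125 in floxed, 1870 ± 132 in null). The other 3 genes had small differences with overlapping libraries. Sesn1 (ENSMUSG00000038332.12, chromosome 10, 41809935 to 41908424, plus strand), a sestrin that restrains mTORC1, had 516 ± 49.7 and 575 ± 105. Phlda3 (ENSMUSG00000041801.5, chromosome 1, 135766119 to 135769136, plus strand), a pleckstrin-homology protein that limits Akt, had 737 ± 34.4 and 779 ± 36.8. Zmat3 (ENSMUSG00000027663.12, chromosome 3, 32334792 to 32366014, minus strand), an RNA-binding zinc finger protein, had 2549 ± 499 and 2511 ± 801, and its libraries varied most within both groups of this day.

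**Figure D2:**
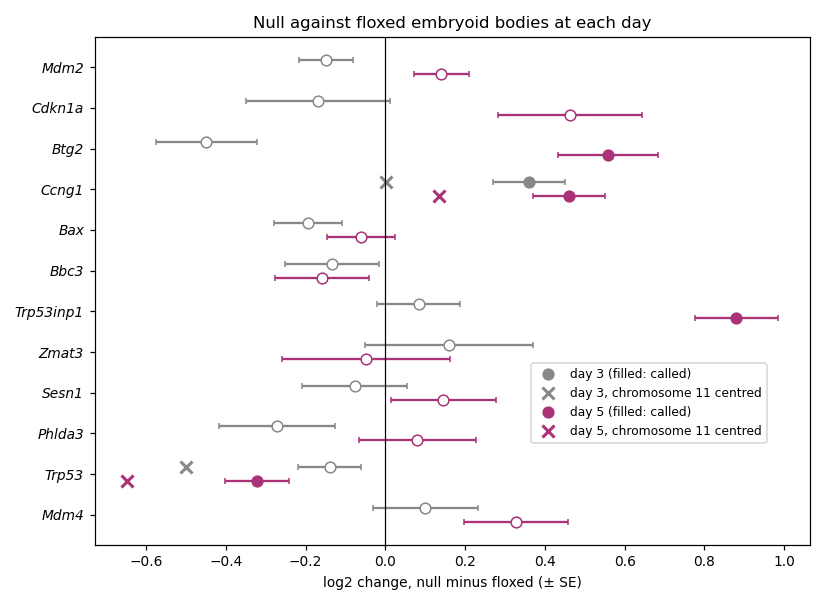
Log2 change, null minus floxed, with SE (horizontal axis) for the 10 p53 target genes, Trp53 and Mdm4 at day 3 (grey) and day 5 (purple). Filled points are called, and crosses give Ccng1 and Trp53 with chromosome 11 centred. Trp53inp1 at 0.88 and Btg2 at 0.56 lie farthest to the right among filled day 5 points together with Ccng1 at 0.46, whose crosses lie at 0.00 and 0.14.

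Cell type markers moved between the lines at day 5 too. Summed over the 8 epiblast and pluripotency markers, floxed libraries had 10121 to 16552 normalised reads and null libraries 5288 to 9186, and 4 of the 8 were called lower. The 4 neural ectoderm markers summed to 4367 to 7634 in floxed and 2154 to 3524 in null libraries, and 2 were called lower. The 3 primitive streak markers in the table summed to 130 to 406 and 81.6 to 116, but they did not move together. In the null line 1 was higher (0.67, not called) and 2 were lower, 1 of them called, and none had its groups apart. Over all genes 13.5% were called lower at day 5. Ranges overlapped for the 6 extraembryonic endoderm markers (451 to 1858 and 861 to 1177) and for the 9 feeder fibroblast markers in the table (2053 to 3093 and 1908 to 3435). The part of cell composition in the differences of Trp53inp1, Btg2 and Ccng1 was not tested. At day 3 the summed ranges overlapped for all 5 marker lists.

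Within each line, the same genes were compared between the days, to read how they move in differentiation with and without Gcn5. The comparisons share groups with those above, so the values are set side by side and not counted as further support. In the floxed line 1 of the 10 genes rose and 3 fell (41.7% of all genes changed, 22.5% up and 19.2% down), with a median of -0.08 against 0.00 over all genes. Its groups were apart upward for 0 of the 10 (27.4% of all genes) and downward for 3 (25.9%). In the null line 3 rose and 1 fell (44.5% of all genes, 22.6% up and 21.9% down), with a median of 0.18 against 0.00, and the groups were apart upward for 4 (27.4% of all genes) and downward for 2 (26.3%). In both lines the share called among the 10 was thus near the background.

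Bax fell in both lines, from 2964 ± 227 to 1950 ± 125 in floxed embryoid bodies (-0.60 ± 0.08, adjusted p = 0.000121) and from 2591 ± 202 to 1870 ± 132 in null ones (-0.47 ± 0.08, adjusted p = 0.000706). Mdm2 fell in the floxed line, from 2329 ± 33.8 to 1714 ± 25.2 (-0.44 ± 0.07, adjusted p = 0.000237). In the null line it went from 2104 ± 134 to 1892 ± 112, which missed the threshold (-0.15 ± 0.07, adjusted p = 0.0854). The 3 floxed day 5 libraries of Mdm2 lie within 1693 to 1742, a narrower spread than in the null line.

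Btg2 rose in both lines. In the floxed line it went from 1371 ± 281 to 1822 ± 176 (0.43 ± 0.13, adjusted p = 0.0159), with overlapping libraries, and the call was lost without floxed day 3 replicate 1 (0.0833) or 2 (0.0505) or floxed day 5 replicate 3 (0.0617). In the null line it went from 993 ± 88.7 to 2676 ± 128, a rise of 1.43 ± 0.13 or 2.70-fold (adjusted p = 5.07e-06). Trp53inp1 moved in opposite directions. It fell from 7816 ± 359 to 5767 ± 1057 in the floxed line (-0.45 ± 0.10, adjusted p = 0.00361) and rose from 8288 ± 541 to 10504 ± 385 in the null line (0.34 ± 0.10, adjusted p = 0.0167). The latter call was lost without null day 3 replicate 2 (0.0649) or null day 5 replicate 3 (0.0530).

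Cdkn1a rose in the null line, from 629 ± 79.4 to 919 ± 170 (0.54 ± 0.18, adjusted p = 0.0275), and that call was lost without null day 3 replicate 1 (0.0849) or 2 (0.0880) or null day 5 replicate 1 (0.116). In the floxed line it had 721 ± 186 and 660.4 ± 56.4 (-0.09 ± 0.18, adjusted p = 0.709). Phlda3 stood at 646 ± 118 and 779 ± 36.8 in the null line, with its groups apart (0.29 ± 0.15, adjusted p = 0.128). Ccng1, Sesn1, Bbc3 and Zmat3 were called in neither line, and the day differences of Ccng1 were -0.01 ± 0.09 in the floxed and 0.09 ± 0.09 in the null line.

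**Figure D3:**
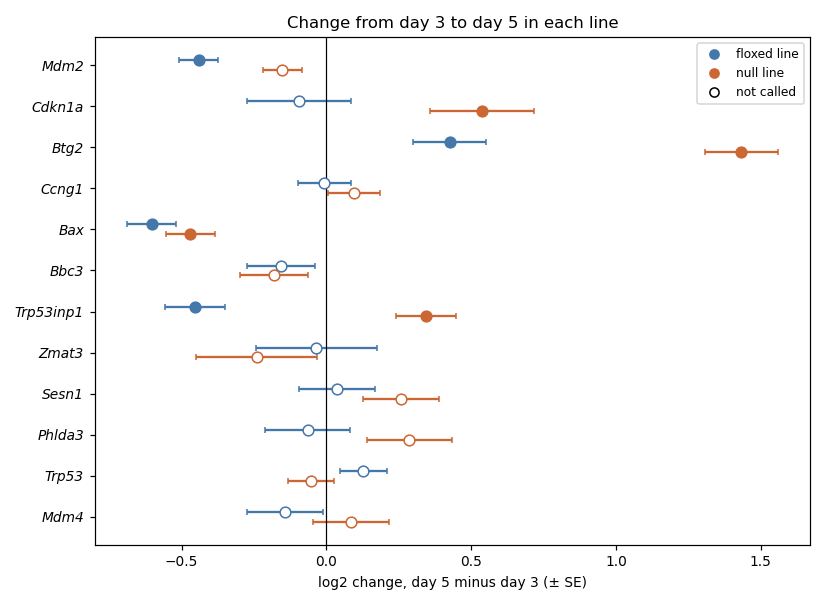
Log2 change from day 3 to day 5 with SE (horizontal axis) in the floxed line (blue) and the null line (orange) for the 10 p53 target genes, Trp53 and Mdm4. Filled points are called. Trp53inp1 lies at -0.45 in the floxed and 0.34 in the null line, while Bax lies below 0 in both.

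The interaction of genotype and day asks whether the null and floxed lines differed by another amount at day 5 than at day 3. It is the log2 difference at day 5 minus that at day 3. Btg2 and Trp53inp1 were called, both with a higher value at day 5, against a background of 0.476% of all genes (0.247% positive and 0.229% negative). Over all genes these were 42 positive and 39 negative calls, or 55 and 30 after upper-quartile scaling, and 212 and 231 with the replicate block. No gene of the 10 was called with a negative interaction by limma-trend, edgeR or DESeq2. At an unadjusted p under 0.05, 4 of the 10 were positive (Mdm2 and Cdkn1a besides the called genes) and 0 negative, against 14.2% of all genes in either direction. The median of the 10 was 0.26, with 8 above 0 and 2 below, and that of all genes was -0.01.

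The interaction of Btg2 was 1.01 ± 0.18 (adjusted p = 0.0345). Its null libraries were all below the floxed ones at day 3 and all above them at day 5. That of Trp53inp1 was 0.80 ± 0.15 (adjusted p = 0.0368), from libraries that overlapped at day 3 and lay apart at day 5. Over all genes the interaction ran from -4.03 to 3.30, with 96.9% of genes below Btg2 and 94.7% below Trp53inp1. Both calls stand close to the threshold. Without single libraries, Btg2 had 0.85 to 1.14 with adjusted p from 0.0347 to 0.0906, and it kept the call only without floxed day 3 replicate 3, floxed day 5 replicate 2 or null day 3 replicate 3. Trp53inp1 had 0.68 to 0.94 with adjusted p from 0.00769 to 0.0989, and it kept the call only without floxed day 3 replicate 3, floxed day 5 replicate 1 or null day 3 replicate 3. Without all 4 libraries numbered 3 the adjusted p of Trp53inp1 was 0.0899.

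The interaction of Cdkn1a was 0.63 ± 0.26 (adjusted p = 0.287) and that of Mdm2 0.29 ± 0.10 (adjusted p = 0.192). The remaining values ran from -0.21 ± 0.30 for Zmat3 to 0.35 ± 0.21 for Phlda3. For 8 of the 10 genes a change of the genotype difference between the days was therefore not detectable with 3 libraries a group, which does not show that it was the same at both days.

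**Figure D4:**
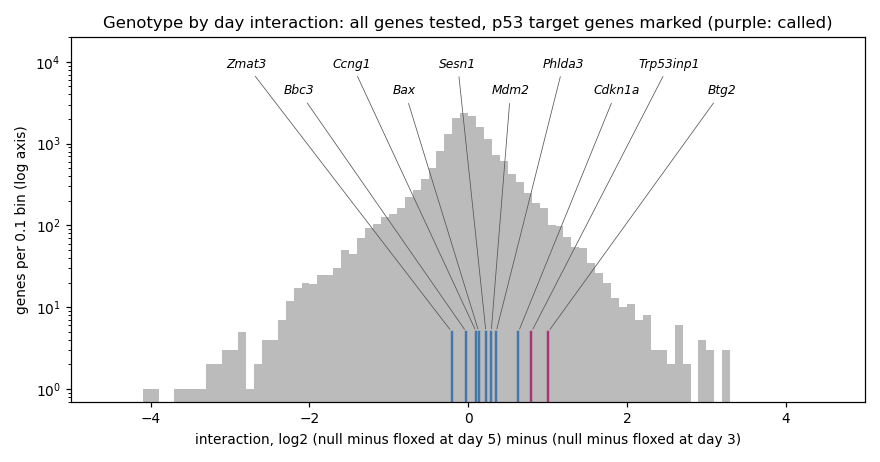
Number of genes (vertical log axis) by the genotype by day interaction on the log2 scale (horizontal axis, bins of 0.1) for all 17000 genes tested. Vertical ticks mark the 10 p53 target genes, purple where called. Btg2 at 1.01 and Trp53inp1 at 0.80 are the 2 called genes, and only Zmat3 and Bbc3 lie below 0.

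Genes that act on p53 were read beside its targets. Trp53 itself (ENSMUSG00000059552.13, chromosome 11, 69580359 to 69591873, plus strand) had 2465, 2614 and 2704 normalised reads in floxed and 2273, 2442 and 2346 in null libraries of day 3, a difference of -0.14 ± 0.08 (adjusted p = 0.326). At day 5 it had 3020, 2717 and 2769 in floxed and 2537, 2080 and 2205 in null libraries. Every null library of day 5 was below every floxed one, and Trp53 RNA was called lower (-0.32 ± 0.08, adjusted p = 0.0111). Leaving out null day 5 replicate 2 ended that call (0.05003, just above the threshold), as did leaving out the 4 libraries numbered 3 (0.0722). Trp53 also lies on chromosome 11, where most genes were higher in the null line: only 6.53% of that chromosome's genes lay below it at day 3 and 8.78% at day 5. Centred on the chromosome, its difference was -0.50 at day 3 (adjusted p = 0.00845) and -0.65 at day 5 (adjusted p = 0.000285). The RNA level says nothing of p53 protein or its acetylation, which were not measured. Mdm4 (chromosome 1, 132959484 to 133030561, minus strand), which blocks the activation domain of p53, had 2137 ± 312 and 2669 ± 238 at day 5 (0.33 ± 0.13, adjusted p = 0.0830, and 0.0483 without floxed day 5 replicate 2). Kat2b had 851 ± 163 and 1754 ± 88.4 at day 5 (1.06 ± 0.14, adjusted p = 0.000276). Its interaction was 0.90 ± 0.19 (adjusted p = 0.0595), called with the replicate block (0.0357), with DESeq2 (0.00196), without floxed day 3 replicate 3 (0.0389) and without floxed day 5 replicate 1 (0.0444).

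A list of 29 genes was drawn up for the control of p53, and it also holds Trp53 itself and its relatives Trp63 and Trp73. Of the 29, 1 was higher and 0 lower at day 3, and 2 were higher and 7 lower at day 5, with medians of -0.03 and -0.06. The 7 include Trp53 and Trp73. Over all genes 4.09% were higher and 2.03% lower at day 3, and 13.0% and 13.5% at day 5, which is the background for this list and the 5 that follow. At an unadjusted p under 0.05, 3 were higher and 4 lower at day 3. In either direction that p was reached by 22.6% of all genes at day 3 and 39.0% at day 5, here and in the 5 lists that follow. Of the 29, edgeR called 1 lower at day 3 and DESeq2 called 2. The day 3 call was Atr, a kinase of the replication stress response (0.34 ± 0.08, adjusted p = 0.0266), and it was lost without any one of floxed day 3 replicates 1 to 3 or null day 3 replicates 1 and 3 (0.0546 to 0.0983), or without the 4 libraries numbered 3 (0.0836). At day 5 Hipk2, a kinase that phosphorylates p53, was lower (1234 ± 169 in floxed, 591 ± 141 in null, -1.08 ± 0.21, adjusted p = 0.00322). So was the p53 relative Trp73 (-0.95 ± 0.27, adjusted p = 0.0219), while Prkdc, the DNA-dependent protein kinase, was higher (0.37 ± 0.11, adjusted p = 0.0268). Trp73 lost its call without floxed day 5 replicate 1 or 3 or null day 5 replicate 2 or 3 (0.0728 to 0.0777), and Prkdc without floxed day 5 replicate 1 or 3 or null day 5 replicate 1 or 2 (0.0684 to 0.105). Neither was called without the 4 libraries numbered 3 (Trp73 -0.66, adjusted p = 0.186, and Prkdc 0.0911) or in the fit of the 2 day 5 groups (0.0771 and 0.0683). From day 3 to day 5, 6 of the 29 rose and 8 fell in the floxed line and 4 rose and 8 fell in the null line, where 22.5% and 19.2% of all genes rose and fell in the floxed and 22.6% and 21.9% in the null line. Usp7, a deubiquitinase of Mdm2 and p53, fell in both (-0.65 ± 0.07 and -0.51 ± 0.07), as did Trp73 (-2.004 ± 0.27 and -1.98 ± 0.27). The ribosomal protein gene Rpl11, whose product binds Mdm2, also fell in both (-0.36 ± 0.07 and -0.44 ± 0.07), and Hipk2 rose in both (1.53 ± 0.21 and 0.82 ± 0.21).

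A list of 24 further genes, drawn up as p53 targets in arrest, repair and metabolism, had 23 in the table. It also holds Trp53rka, a kinase that acts on p53 and is no target of it, so that its counts cover 22 targets and that kinase. At day 3, 2 were higher and 0 lower (2 higher and 2 lower at an unadjusted p under 0.05), and edgeR called 0 lower and DESeq2 1. At day 5, 6 were higher and 5 lower with a median of 0.05 (13.0% and 13.5% of all genes). Ddit4, an mTORC1 inhibitor induced by several stresses, was higher at both days. It had 5819, 4838 and 4437 normalised reads in floxed and 12131, 7873 and 7858 in null libraries of day 3 (0.86 ± 0.21, adjusted p = 0.0278), and 1404 ± 405 against 3423 ± 480 at day 5 (1.32 ± 0.21, adjusted p = 0.000899). Rrm2b, the p53-induced subunit of ribonucleotide reductase, was higher at day 3 (0.41 ± 0.11, adjusted p = 0.0416). The Ddit4 call at day 3 was lost without floxed day 3 replicate 2 or 3 or null day 3 replicate 1 or 3 (0.0508 to 0.0935), and that of Rrm2b without floxed day 3 replicate 2 or 3 or any null day 3 library (0.0679 to 0.149). Rrm2b was also not called without the 4 libraries numbered 3 (0.186), by edgeR (0.0535), with chromosome 11 centred (0.0630) or in the fit of the 2 day 3 groups (0.105).

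Dcxr, an enzyme of xylulose metabolism encoded on chromosome 11, was higher at day 5, with 315, 333 and 274 normalised reads in floxed and 709, 741 and 670.3 in null libraries (1.20 ± 0.14, adjusted p = 0.000172, and 0.88 with chromosome 11 centred, adjusted p = 0.00129). Rprm, which encodes the cell cycle inhibitor Reprimo, was lower at day 5 (609 ± 197 in floxed, 198 ± 38.6 in null, -1.59 ± 0.35, adjusted p = 0.00577), and so was Trp53rka (-0.57 ± 0.12, adjusted p = 0.00518), which makes 4 targets and the kinase called lower. Genes of this one list thus moved in both directions at day 5. From day 3 to day 5, 5 rose and 5 fell in the floxed line and 3 rose and 5 fell in the null line. Over all genes 22.5% rose and 19.2% fell in the floxed line, and 22.6% and 21.9% in the null line. Ddit4 fell in both lines (-1.87 ± 0.21 and -1.42 ± 0.21). So did Gdf15, a stress-induced growth factor (-1.03 ± 0.36 and -2.01 ± 0.36), though in the floxed line it was not called without floxed day 3 replicate 1 or 3 or floxed day 5 replicate 1 or 2 (0.0813 to 0.124), without the 4 libraries numbered 3 (0.118) or by DESeq2 (0.0788). Gdf15 counts were low. The floxed line had 16.0 ± 4.56 normalised reads at day 3 and 7.28 ± 2.03 at day 5, and the null line 19.3 ± 6.47 and 3.86 ± 0.573. Rprm rose in the floxed line (1.55 ± 0.35) and had 0.89 ± 0.35 in the null line (adjusted p = 0.0514). There it was called with the replicate block (0.00719), in the fit of the null groups alone (0.00715), by DESeq2 (0.0284), after upper-quartile scaling (0.0486), without null day 3 replicate 3 (0.0483), without null day 5 replicate 1 (0.0457) and without the 4 libraries numbered 3 (0.00942). Ddb2, a nucleotide excision repair gene, fell in the floxed line (-0.80 ± 0.19) and had -0.37 ± 0.19 in the null line (adjusted p = 0.138). Dcxr rose in the null line (0.997 ± 0.14) and had -0.25 ± 0.14 in the floxed line (adjusted p = 0.184).

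Among 16 tested p53 targets of cell death, 0 were called at day 3 by limma-trend or edgeR (DESeq2 called 1 lower, and 1 higher and 2 lower had an unadjusted p under 0.05). At day 5, 2 were higher and 1 lower, against 13.0% and 13.5% of all genes. Siva1, a death receptor pathway protein, was lower at 981 ± 83.8 against 1489 ± 90.8 (-0.60 ± 0.08, adjusted p = 0.000305). Steap3, a metalloreductase, was higher (0.87 ± 0.20, adjusted p = 0.00673), as was the death receptor Tnfrsf10b (0.45 ± 0.13, adjusted p = 0.0269), the latter not without floxed day 5 replicate 3 (0.103) or null day 5 replicate 1 (0.104), without the 4 libraries numbered 3 (0.0732) or in the fit of the 2 day 5 groups (0.0716). Between the days, 5 rose and 5 fell in the floxed line and 3 rose and 4 fell in the null line. The shares of all genes were 22.5% up and 19.2% down in the floxed line, and 22.6% and 21.9% in the null line. Among the named genes, those that fell in both were Pycard (-1.35 ± 0.21 floxed, -1.03 ± 0.21 null), Rps27l (-0.48 ± 0.08 and -0.43 ± 0.08) and Pmaip1, which encodes the death inducer Noxa (-1.02 ± 0.18 and -0.98 ± 0.18). The autophagy gene Dram1 (1.999 ± 0.32 and 1.36 ± 0.32) and Trp53i11 (1.51 ± 0.28 and 1.61 ± 0.28) rose in both. Siva1 fell in the null line (-0.62 ± 0.08) and had -0.20 ± 0.08 in the floxed line (adjusted p = 0.0549). In the floxed line it was called with the replicate block (0.0352), by edgeR (0.0499) and DESeq2 (0.0374), after upper-quartile scaling (0.0280) and without floxed day 5 replicate 3 (0.0404).

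Of the Bcl2 family, whose members oppose or assist Bax and Bbc3, 11 genes were tested. At day 3, 0 were called by limma-trend, edgeR or DESeq2 (1 higher and 0 lower at an unadjusted p under 0.05), and at day 5, 1 was higher and 3 were lower, against 13.0% and 13.5% of all genes. Bcl2, the death inhibitor for which the family is named, had 365, 354 and 464 normalised reads in floxed and 130.0, 198 and 196 in null libraries of day 5 (-1.19 ± 0.19, adjusted p = 0.00114). Bik was higher (1.13 ± 0.26, adjusted p = 0.00828), while Bak1, a pore former like Bax, was lower (-0.31 ± 0.08, adjusted p = 0.0103). Hrk was lower (-1.15 ± 0.38, adjusted p = 0.0385), but not without any one of the floxed day 5 libraries or null day 5 replicate 1 or 3 (0.0532 to 0.122). Bik, Bak1 and Hrk lost their calls without the 4 libraries numbered 3 (0.101, 0.0501 and 0.139). Between the days 5 rose in each line, and 2 fell in the floxed and 3 in the null line. The shares of all genes were 22.5% up and 19.2% down in the floxed line, and 22.6% and 21.9% in the null line. Bmf (1.02 ± 0.12 floxed, 1.29 ± 0.12 null), Bcl2l1 (0.93 ± 0.13 and 0.94 ± 0.13) and Bcl2 (1.96 ± 0.19 and 0.95 ± 0.19) rose in both, and Mcl1 fell in both (-0.56 ± 0.11 and -0.80 ± 0.11).

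Cdkn1c was the 1 of 7 other inhibitors of cyclin-dependent kinases that was called between the lines. It encodes p57, a relative of p21, from an imprinted gene, and was lower in the null line at day 3 (493, 697 and 660.2 in floxed, 176, 137 and 178 in null, -1.90 ± 0.26, adjusted p = 0.00194). It was lower at day 5 too (2357, 2324 and 2691 in floxed, 165, 253 and 434 in null, -3.22 ± 0.26, adjusted p = 1.97e-05). None of the 7 was called higher at either day by limma-trend, edgeR or DESeq2. At an unadjusted p under 0.05, 0 were higher and 1 lower at day 3, and 2 were higher and 1 lower at day 5. Cdkn1c rose with time in the floxed line (2.01 ± 0.26) and in the null line (0.69 ± 0.26, adjusted p = 0.0471). The latter call was lost without any null day 3 library or without null day 5 replicate 2 or 3 (0.0631 to 0.206), with a value of 0.33 without null day 5 replicate 3. It was also lost in the fit of the null groups alone (0.0854) and without the 4 libraries numbered 3 (0.40, adjusted p = 0.181).

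The last list, with 21 genes tested, was drawn up as cell cycle genes that p21 represses through the DREAM complex. It also holds E2f4, Rbl1, Rbl2, Lin9 and Lin54, which encode subunits of DREAM itself, so its counts cover targets and subunits. At day 3, 6 were higher and 2 lower at an unadjusted p under 0.05, against 22.6% of all genes in either direction. The edgeR test called 0 lower and DESeq2 called 1. By limma-trend 0 were called lower and 3 higher. They were Aurkb (0.45 ± 0.09, adjusted p = 0.0126), Birc5 (0.28 ± 0.07, adjusted p = 0.0423) and Bub1 (0.26 ± 0.07, adjusted p = 0.0495), all of mitosis. Aurkb and Birc5 lie on chromosome 11, and with that chromosome centred they stood at 0.09 and -0.08 (adjusted p = 0.644 and 0.579). Aurkb lost its call without floxed day 3 replicate 1 or null day 3 replicate 3 (0.0586 and 0.0584), Birc5 without floxed day 3 replicate 1 or 3 or null day 3 replicate 2 or 3 (0.107 to 0.126), and Bub1 without floxed day 3 replicate 1, 2 or 3 or null day 3 replicate 1 or 3 (0.0581 to 0.166). Birc5 and Bub1 were not called without the 4 libraries numbered 3 (0.237 and 0.168) or in the fit of the 2 day 3 groups (0.106 for each). Bub1 was also not called with no filter, with upper-quartile scaling (0.0521 for each), with edgeR (0.0587) or with chromosome 11 centred (0.0730). At day 5, 2 were higher and 5 lower, with a median of -0.05, against 13.0% and 13.5% of all genes. Cdc25a (-0.37 ± 0.07, adjusted p = 0.00241), Mybl2 (-0.65 ± 0.14, adjusted p = 0.00529), E2f4 (-0.35 ± 0.08, adjusted p = 0.00822) and Ccna2 (-0.23 ± 0.06, adjusted p = 0.0108) were lower. E2f4 is among the DREAM subunits of the list. Without the 4 libraries numbered 3, E2f4 and Ccna2 were not called (0.0626 and 0.115). From day 3 to day 5, 3 rose and 6 fell in the floxed line and 2 rose and 12 fell in the null line, where the median was -0.20. Over all genes 22.5% rose and 19.2% fell in the floxed line, and 22.6% and 21.9% in the null line. Bub1 (-0.56 ± 0.07 floxed, -0.64 ± 0.07 null) and Ccnb1 (-0.35 ± 0.07 and -0.50 ± 0.07) fell in both, as did Cdk1 (-0.30 ± 0.06 and -0.27 ± 0.06) and Plk1 (-0.24 ± 0.07 and -0.42 ± 0.07), the last not called in the floxed line without the 4 libraries numbered 3 (0.0667). Whether the lines differ in these counts was not tested.

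Across the 6 other lists of the pathway, Dcxr was the only gene whose interaction was called by limma-trend or edgeR. Its value was 1.24 ± 0.20 (adjusted p = 0.0308), and the call was lost without any one of 8 libraries: floxed day 3 replicates 1 and 2, floxed day 5 replicate 3, null day 3 replicates 1 and 2, and the 3 of null day 5 (0.0529 to 0.0825). At an unadjusted p under 0.05, each of the 6 lists had 0 to 4 positive and 0 to 2 negative genes, against 14.2% of all genes in either direction. DESeq2 called 5 more list genes, all negative: 1 each in the cell death, Bcl2 and kinase inhibitor lists and 2 in the DREAM list. Over all 17000 genes DESeq2 called 511 interactions, 241 positive and 270 negative.

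**Figure D5:**
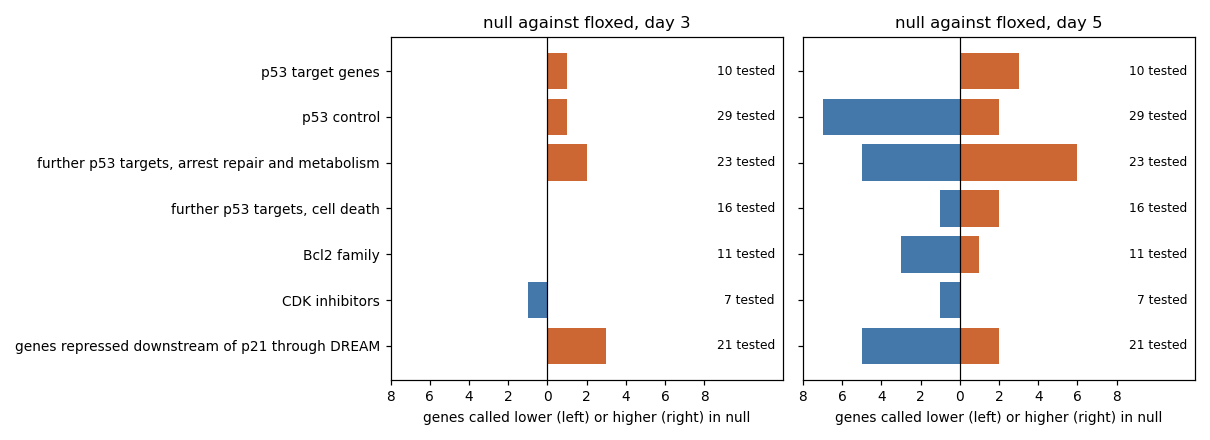
Number of genes called lower (left, blue) or higher (right, orange) in the null line (horizontal axes) in the p53 target genes and 6 other lists of the pathway, at day 3 (left panel) and day 5 (right panel), with the number of genes tested beside each bar. At day 5 the 10 target genes have 3 calls, all higher, while 5 of the other lists have calls in both directions.

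The genes whose pattern over the 12 libraries was most like that of Cdkn1a were taken from 11940 genes outside the lists with a mean of at least 100 in some group. Likeness was the mean absolute difference of log2(value + 1) after each gene was centred on its own mean. Arhgap42 was nearest at 0.0997, then Castor2 (0.130), Susd6 (0.132), Osbpl3 (0.135) and St6gal1 (0.136), where the median gene was at 0.321. The other target genes ran from Phlda3 at 0.206 and Ccng1 at 0.222 to Btg2 at 0.354 and Bax at 0.379. Only Btg2 and Bax were farther from Cdkn1a than the median gene, and Bbc3 came next at 0.295. The 5 nearest are the smallest distances among 11940 genes, so they are no standard for the targets. Nearest to the mean of the 10 genes were Slx4 (0.0524), Pi4ka (0.0545), Pnpla7 (0.0573), Mboat7 (0.0574) and Phip (0.0584), against a median of 0.225. These are descriptions of 12 libraries that share days and lines, and they carry no test.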

How the data were processed

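RNA of 12 samples was made into stranded libraries from total RNA, with amplification cut to 8 cycles, per the labels' protocols. The deposited table holds 1 signal value per gene and library, read counts that the authors divided by a size factor per library. Per the submitters' processing notes, the tools were DESeq 1.16.0, HTSeq 0.6.0, TopHat2 2.0.10 and CASAVA 1.8.2 and the build mm10, with no role stated. Strand use in counting is not given in the sources used here. Bax shares 12.2% of its exon bases with Gm45808 and Cdkn1a 7.68% with AC167363.2 on the other strand. Neither is in the table, so reads could not be divided. Whole reads were recovered from 100% of values (tolerance 0.01). Symbols and exon lengths came from GENCODE M21 by gene ID without version (18199 matched, 70 did not).

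Values were taken as log2(value + 1), and 4 group means were fitted over the 12 libraries by limma-trend (R 4.3.3, limma 3.58.1; 8 residual and 5.00 prior degrees of freedom). Benjamini-Hochberg adjustment ran over 17000 genes, and 1269 lay below the filter. Fold changes are on that log2 scale. Alternatives were edgeR 4.0.16 and DESeq2 1.42.0 on recovered reads, other pseudocounts, no filter, upper-quartile scaling, chromosome 11 centring, fits of 2 groups, the replicate block and single libraries left out. Leaving out the 4 libraries numbered 3 was added after seeing the data. Scripts were tested on simulated data. Same-numbered null and floxed libraries deviated together across genes (r = 0.270 to 0.372 at day 3 and 0.247 to 0.424 at day 5, other pairs at most 0.0268), as did null libraries of the 2 days (0.123 to 0.282). Floxed libraries of the 2 days had 0.0814 to 0.214. The numbers were thus taken to pair the libraries, except between days in the floxed line. The main tests nevertheless had no term for the pairs, and only the replicate block does. With the block 1866 genes were called at day 3 against 1041, and 5638 at day 5 against 4509. The interaction had 443 against 81.

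The members and lists were chosen with earlier results of these data known. Named were the 10 targets, Trp53, Mdm4, Kat2a and Kat2b, at most 4 called genes a list with the smallest p (3 outside the genotype comparisons), and the 5 nearest patterns. For genes named in 1 line between the days, the value in the other line was added after the data were seen. Ercc5a, Casp1, Bcl2a1a, Bcl2a1b, Bcl2a1d, Mesp1 and Lum were not analysed here.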

Additional observations from a re-analysis of the deposited data

Results flagged for a closer look

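Genes were singled out where the genotype difference itself changed between the days by the interaction test. Btg2 was lower in the null line at day 3, short of the threshold, and called higher at day 5, an interaction of 1.01 (adjusted p = 0.0345). Trp53inp1 had 0.80 (adjusted p = 0.0368) and Dcxr 1.24 (adjusted p = 0.0308). In 12 fits that each left out 1 library, the call was lost in 9 for Btg2, 9 for Trp53inp1 and 8 for Dcxr. Groups of 3 are too small for a test of single outlying libraries.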

How the results depend on the processing

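Of 850 alternative values for the 10 target genes, 787 kept direction and side of the threshold, 35 lost the call, 5 gained it and 23 changed sign, the last all among values that were not called. A call could be lost only for the 14 called pairs of gene and comparison. Most of the 850 values belong to pairs that were never called, so 850 is no base for the 35. At day 3, 1 target gene was called and 1041 of all genes (66.9% higher). DESeq2 gave 2 and 1696, chromosome 11 centring 0 and 458 (46.5% higher), the fit of the 2 groups 647 of all genes, and leaving out the 4 libraries numbered 3 gave 0 and 383. With the replicate block the counts were 2 and 1866. The interaction (2 target genes, 81 of all genes) came to 443 of all genes with the replicate block, 511 with DESeq2, and 1 and 35 (34.3% higher against 51.9%) without the 4 libraries numbered 3. The block changed no other call of a target gene than that of Btg2 at day 3. At day 5, 2591 genes were called without those 4 libraries, against 4509.

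Signs changed as follows. Without the 4 libraries numbered 3, Trp53inp1 had -0.00242 at day 3, the floxed days had 0.14 for Cdkn1a, 0.0714 for Ccng1, 0.22 for Zmat3 and 0.0797 for Kat2a, and Mdm4 had -0.0166 between null days. Birc5 had -0.0821 at day 3 with chromosome 11 centred, and the interaction of Bbc3 was 0.0156 after upper-quartile scaling. Without single libraries, target genes called ran from 0 to 1 at day 3, 2 to 4 between null days and 0 to 2 for the interaction, and all genes called from 426 to 779, 6282 to 7097 and 3 to 115. The median of the 10 ran from -0.171 to -0.0356 between floxed days and from 0.0831 to 0.201 between null days. Zmat3 ran from -0.0122 to 0.294 at day 3 and from -0.296 to 0.0899 at day 5, and Mdm4 from -0.0294 to 0.174 at day 3. Between floxed days, Cdkn1a ran from -0.319 to 0.0648, Ccng1 from -0.112 to 0.0489, Sesn1 from -0.0417 to 0.0864, Phlda3 from -0.188 to 0.0855, Zmat3 from -0.172 to 0.114 and Kat2a from -0.0725 to 0.0349. Trp53 reached 0.00789 between null days without null day 5 replicate 2, and the interaction of Bbc3 ran from -0.136 to 0.105. The cause of each was not tested. Fewer libraries also leave fewer residual degrees of freedom.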
